A study of Mus musculus with 15 samples.

Results

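The miR-290 to miR-295 cluster of the mouse was described from its entries in a table of miRNA and piRNA counts of sorted microglia. Of the 1994 entries of that table, 18 carried a name from mmu-miR-290 to mmu-miR-295, with any letter and either arm. Members were chosen by this name and ranked by their unique molecular identifiers (UMIs), counts of distinct molecules, summed over all 15 libraries. The top 10 were kept, and the 8 below them are given by their counts. The tenth, mmu-miR-290b-5p, held 80 UMIs and the eleventh, mmu-miR-294-5p, held 77. The cluster was taken up because mmu-miR-290b-3p and mmu-miR-292a-5p were already known to be higher in amyloid-laden microglia of these same libraries. The values of these 2 entries in that contrast are therefore a description, and the question put to the data was what the neighbours in the cluster did.

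The cells were microglia, the macrophages that live in the brain, sorted by CD11b, CD45 and, by the methods of the study, CX3CR1. They came from 5xFAD transgenic (TG) mice, which carry familial Alzheimer's transgenes driven by the neuronal Thy1 promoter, and from wild-type (WT) mice. All mice, WT included, were given Methoxy-X04 (Me-X04), which stains amyloid. The groups, of 5 libraries each, were TG Me-X04+ cells, which had taken up stained amyloid, TG Me-X04− cells from those same mice, and WT cells, and the first pair is written Me-X04+ and Me-X04− from here on. The labels give an age of 6 months to TG mice and of 2 months to WT mice. A difference from WT can therefore be one of genotype or one of labelled age, and these cannot be told apart. Each library is a bulk sample, in which fewer cells of a type and less RNA per cell cannot be told apart.

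UMIs on miRNAs and piRNAs were 240027 to 372998 per library in Me-X04+, 405351 to 682553 in Me-X04− and 424536 to 1192832 in WT. Levels below are in CPM, an entry's UMIs relative to the size of its library after scaling by the TMM factor, which offsets a change in the makeup of a library. This factor was 1.33 to 2.92 in Me-X04+, 0.58 to 1.19 in Me-X04− and 0.56 to 0.85 in WT. No deposited count lay between 1 and 9, so a value listed at 0 may stand for 0 to 9 UMIs. All 5 myeloid markers (miR-223-3p, both arms of miR-142a, miR-146a-5p and miR-155-5p) were detected. Their summed level was 24161 to 47888 CPM in Me-X04+, 88918 to 185408 CPM in Me-X04− and 109557 to 176049 CPM in WT.

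The plus-strand hairpins of the cluster are transcribed as a single long RNA in embryonic stem cells, the early embryo and germ cells of the mouse. That RNA is largely silent in differentiated tissue. The hairpins of miR-290b and miR-292b lie on the opposite strand, as given below. Each hairpin can give a miRNA from its 5′ arm (5p) and its 3′ arm (3p), and the 3p products of several hairpins share the core AAGUGC in the seed, the stretch at bases 2 to 8 by which a miRNA pairs with its targets. In stem cells these 3p products are known for repressing inhibitors of the G1 to S transition of the cell cycle, such as Cdkn1a, and for holding cells in the pluripotent state.

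Of the 18 entries, 17 had a mature sequence in the RefSeq table (build GRCm38.p6), and miR-292a-3p had none there. The sequences of the 10 members and of the antisense partner miR-290a-5p are shown 5′ to 3′ with the seed in capitals, because the abundant pair of entries and their neighbours differ in seed and in strand.
miR-290b-3p: aAGUGCCCccauaguuugagua
miR-292a-5p: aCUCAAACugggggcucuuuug
miR-290a-5p: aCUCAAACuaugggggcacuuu
miR-293-5p: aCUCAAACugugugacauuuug
miR-292b-3p: aAGAGCCCccaguuugaguau
miR-294-3p: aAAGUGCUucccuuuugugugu
miR-295-3p: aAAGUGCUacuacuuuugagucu
miR-291b-3p: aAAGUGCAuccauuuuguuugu
miR-293-3p: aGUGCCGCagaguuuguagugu
miR-291b-5p: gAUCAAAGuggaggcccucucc
miR-290b-5p: gCUUAAAAcuaggcggcacuuu
miR-292a-5p shared its seed CUCAAAC with miR-293-5p and miR-290a-5p, and no other of the 1679 mature mouse miRNAs in the table had it. The seed of miR-290b-3p, AGUGCCC, was found in no other entry. Its core AAGUGC starts at the first base, where it starts at the second base in miR-294-3p, miR-295-3p, miR-291b-3p, miR-291a-3p and miR-290a-3p. The letters AAGUGC stood anywhere in 6 of the 17 cluster sequences and in 1.19% of all mature sequences (read in the sense direction only). miR-290b-3p and miR-292a-5p themselves shared no run longer than 4 bases and differed by 17 single-base edits. The nearest sequences were miR-292b-3p for miR-290b-3p, at 4 edits, and miR-290a-5p, miR-292b-5p and miR-293-5p for miR-292a-5p, at 5 edits.

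The cluster spans chr7:3218626-3220841 (GRCm38) with 7 hairpins on the plus strand and the hairpins of miR-290b and miR-292b on the minus strand. The hairpin of miR-290b (chr7:3218638-3218695) lies inside that of miR-290a (chr7:3218626-3218708), and that of miR-292b (chr7:3219198-3219259) inside that of miR-292 (chr7:3219189-3219270). miR-290b-3p (chr7:3218638-3218659, minus) thus overlaps miR-290a-5p (chr7:3218639-3218660, plus) by 21 bases on the opposite strand. miR-292a-5p (chr7:3219200-3219221, plus) overlaps miR-292b-3p (chr7:3219198-3219218, minus) by 19 bases. The GENCODE vM21 annotation places all hairpins except miR-290a and miR-290b inside the 3′ UTR of Nlrp12 (chr7:3218784-3222475, minus), so that miR-292a-5p is antisense to that gene and miR-292b-3p is in its sense direction. Neither of the 2 annotated Nlrp12 transcripts was listed in the deposited table of other RNAs. None of the 1971 uncharacterised mappable sequences lay in the cluster, and none shared 14 or more bases with a cluster entry.

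The pair of entries held most of the cluster's molecules. The 18 entries together had 8798 UMIs in 15 libraries, 0.117% of the table, and miR-292a-5p with 4859 and miR-290b-3p with 1850 made up 76.3% of them. The next were miR-294-3p with 511 UMIs, miR-293-3p with 256, miR-292b-3p with 251, miR-291b-5p with 238, miR-291b-3p with 181, miR-295-3p with 151 and miR-293-5p with 96. Only miR-292a-5p, miR-290b-3p, miR-294-3p and miR-292b-3p were above 0 in all 15 libraries. The more abundant strand differed at the antisense sites: the minus-strand miR-290b-3p had 1850 UMIs against 65 for the plus-strand miR-290a-5p, and the plus-strand miR-292a-5p had 4859 against 251 for the minus-strand miR-292b-3p. The other arms of the same hairpins were low as well, with 80 UMIs for miR-290b-5p and 68 for miR-292a-3p.

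**Figure D1:**
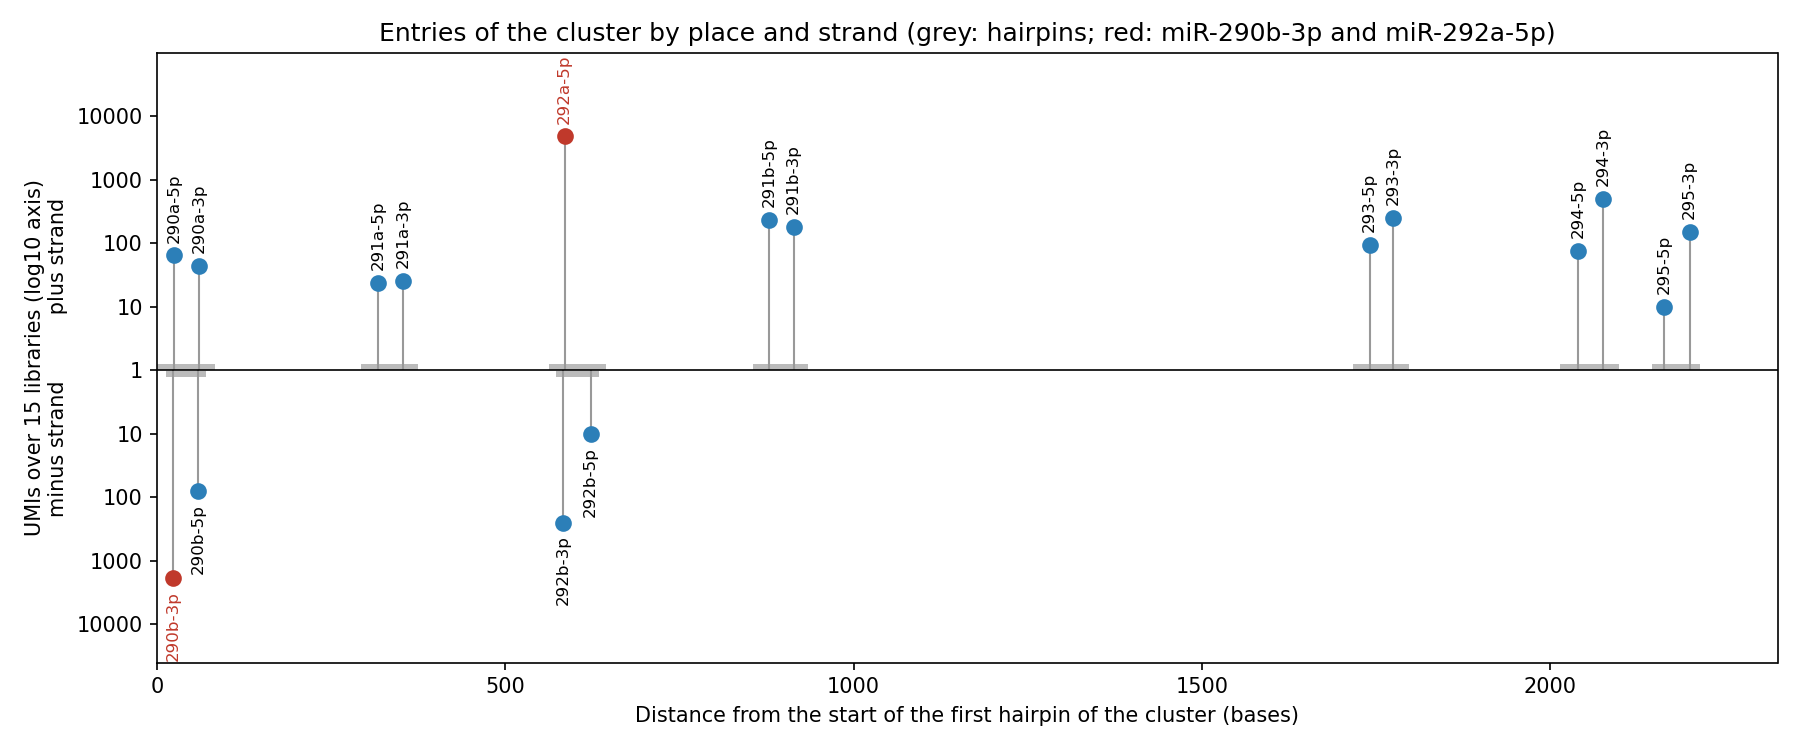
Total UMIs over 15 libraries (log10 axis) of the 17 entries with a known position, against their distance in bases from the start of the first hairpin, plus strand above the line and minus strand below, with hairpins in grey. miR-292a-5p at 4859 and miR-290b-3p at 1850 UMIs (red) stand on opposite strands of 2 different hairpins, and the other entries lie between 10 and 511.

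miR-290b-3p stood at 834, 279, 591, 238 and 283 CPM in Me-X04+ replicates 1 to 5, against 224, 133.6, 226, 213 and 195 CPM in Me-X04− of the same mice. In WT it stood at 153.0, 82.3, 154.6, 138.8 and 130.6 CPM. All 5 Me-X04+ libraries lay above the highest of both other groups, and replicates 1 and 3 stood far above the rest. Summed over the 5 libraries of a group these levels rest on 1116 UMIs in Me-X04+, 435 in Me-X04− and 299 in WT. The mean was 445 ± 260 CPM in Me-X04+, 199 ± 38.3 CPM in Me-X04− and 131.8 ± 29.4 CPM in WT (SD, n = 5 each).

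miR-292a-5p, the most abundant entry of the cluster, stood at 1233, 639, 1539, 790 and 761 CPM in Me-X04+, against 332, 427, 650, 581 and 633 CPM in Me-X04−. WT libraries held 640, 396, 542, 462 and 328 CPM. The groups touched: 4 of 5 Me-X04+ libraries lay above every other library, and replicate 2 fell just below the highest Me-X04− and WT libraries. Each mouse nevertheless had more in its Me-X04+ than in its Me-X04− library (5 of 5), as for miR-290b-3p. These rest on 2656 UMIs in Me-X04+, 1180 in Me-X04− and 1023 in WT. Means were 992 ± 380 CPM in Me-X04+, 524 ± 139 CPM in Me-X04− and 474 ± 122 CPM in WT (SD, n = 5 each).

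**Figure D2:**
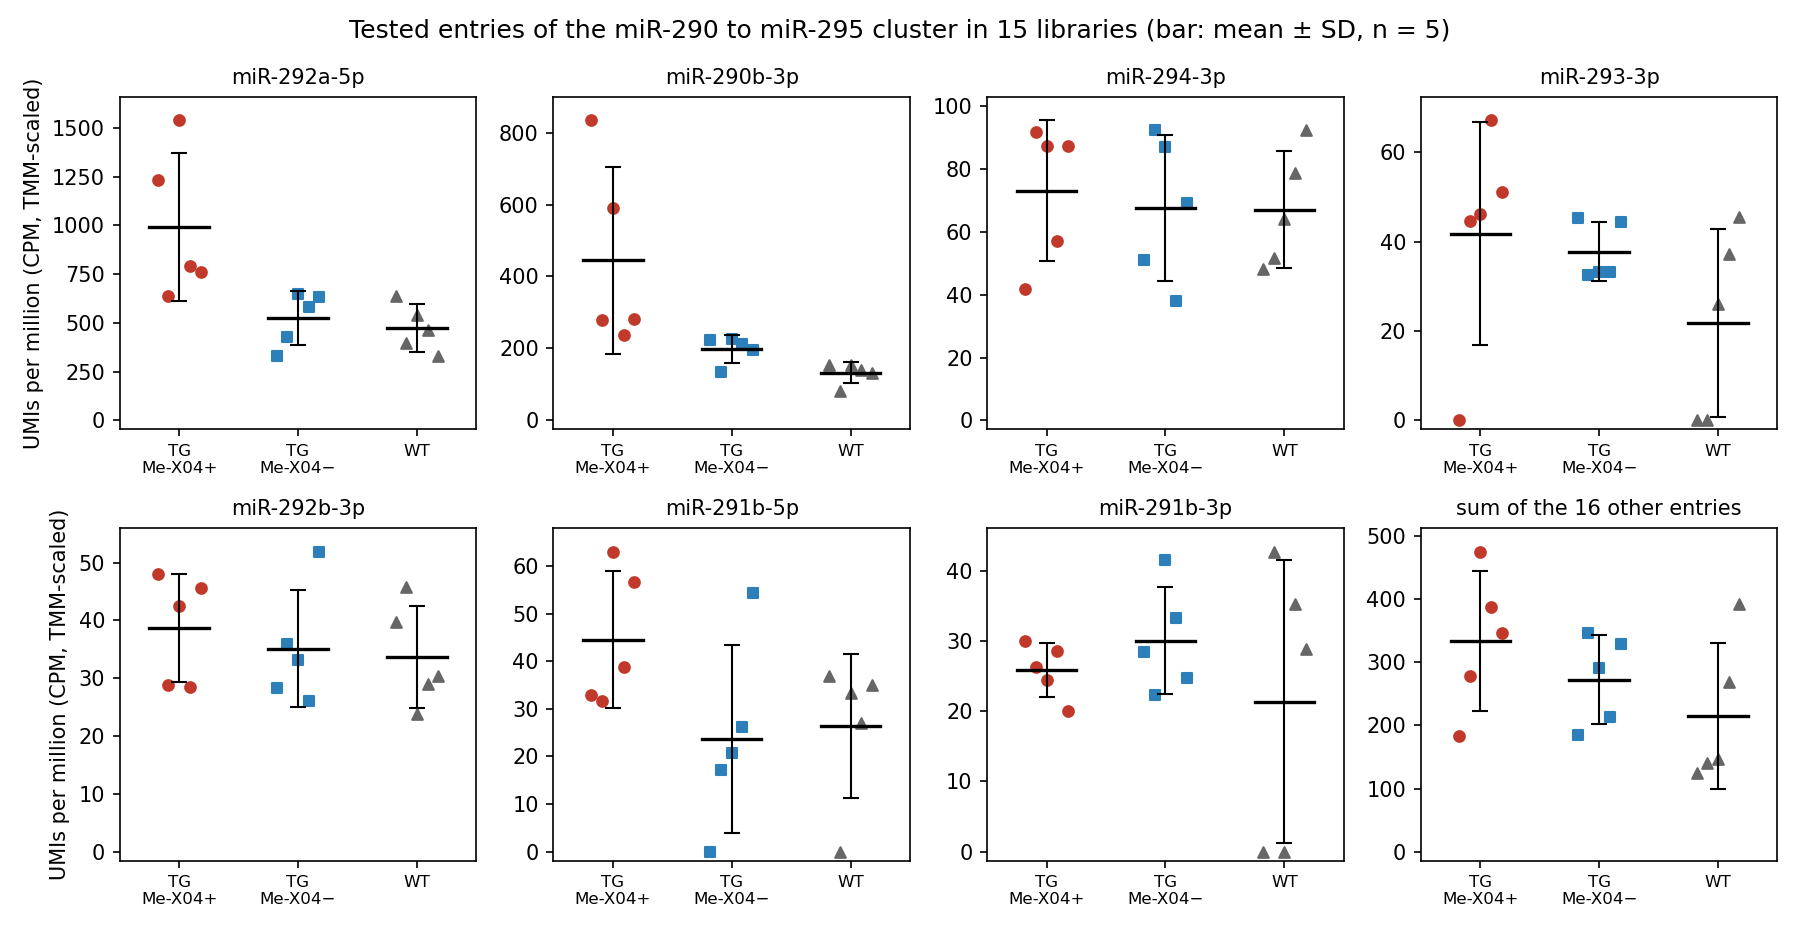
Level in CPM (linear axes) of the 7 tested entries and of the sum of the 16 entries other than miR-290b-3p and miR-292a-5p; each point is a library and bars are mean ± SD (n = 5). For miR-290b-3p the 5 Me-X04+ libraries lie at 238 CPM or above and all others at 226 CPM or below, while miR-294-3p, miR-292b-3p and miR-291b-3p overlap across groups.

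Among the neighbours, miR-294-3p, a classical stem cell member with the AAGUGC core, had 42.0, 92.0, 87.4, 57.0 and 87.6 CPM in Me-X04+, against 51.1, 92.5, 87.2, 37.9 and 69.2 CPM in Me-X04− and 48.2, 51.8, 64.2, 78.7 and 92.6 CPM in WT. The 3 groups covered the same range, and Me-X04+ replicate 1, the highest for miR-290b-3p, was its lowest for miR-294-3p. miR-292b-3p, which lies opposite miR-292a-5p, had 48.0, 28.9, 42.4, 28.5 and 45.6 CPM in Me-X04+, 28.4, 36.0, 33.2, 26.1 and 51.9 CPM in Me-X04− and 39.7, 45.7, 23.8, 29.0 and 30.4 CPM in WT. These values overlapped as well, with the highest of all in a Me-X04− library.

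Of the neighbours that passed the filter on low counts, miR-291b-5p had the largest fold change in Me-X04+ vs Me-X04−. It stood at 33.0, 31.5, 63.0, 38.7 and 56.5 CPM in Me-X04+, 0, 17.1, 20.8, 26.1 and 54.4 CPM in Me-X04− and 36.8, 0, 33.3, 26.9 and 34.9 CPM in WT. It was higher in Me-X04+ in 5 of 5 mice, but its raw counts of 0 to 49 UMIs sat close to the limit of 10. miR-291b-3p, from the other arm of that hairpin, had 20.1 to 30.0 CPM (median 26.3) in Me-X04+, 22.3 to 41.5 CPM (median 28.4) in Me-X04− and 0 to 42.7 CPM (median 28.8) in WT. miR-293-3p was listed at 0 in Me-X04+ replicate 1 and in 2 WT libraries and was otherwise at 44.7 to 67.2 CPM in Me-X04+, 32.5 to 45.4 CPM in Me-X04− and 26.2 to 45.5 CPM in WT.

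Summed over the 16 entries other than the abundant pair, the cluster stood at 183, 279, 476, 389 and 347 CPM in Me-X04+, 185, 346, 291, 213 and 329 CPM in Me-X04− and 125, 140, 147, 269 and 393 CPM in WT. With TMM scaling all 3 groups overlapped. With library size alone the sum was 254 to 1360 CPM in Me-X04+, 106.3 to 345 CPM in Me-X04− and 92.0 to 228 CPM in WT, so that each Me-X04+ library lay above each WT library, while Me-X04+ and Me-X04− still overlapped. The overlap of Me-X04+ with WT was thus present after TMM scaling and not with library size alone. The sum of miR-290b-3p and miR-292a-5p was at 1213 to 6090 CPM in Me-X04+, 321 to 1041 CPM in Me-X04− and 253 to 644 CPM in WT under library size alone. In Me-X04+ replicate 1, where miR-290b-3p was highest with TMM scaling, the sum of the 16 other entries was the lowest of its group. There, 11 of those 16 entries were listed at 0. In Me-X04+ replicate 3, the other library with a high level of the pair, the sum of the 16 was the highest of all. In replicate 3, 3 of the 16 were at 0, beside 11.2% of all entries. This library also had the largest TMM factor (2.92), so its scaled levels rest most on the scaling.

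Across the whole table, 1435 entries passed the filter on low counts and were tested with edgeR's quasi-likelihood test, and a call required a Benjamini-Hochberg adjusted p under 0.05 and a log2 fold change of at least 0.7 in size. Of the 18 cluster entries, 7 passed that filter, and the 11 others entered only a fit without that filter, which called none of them in any of the 3 comparisons. In Me-X04+ vs Me-X04−, the comparison that drew attention to the cluster, 2 of the 7 were called higher and none lower, beside 1.39% of all tested entries called higher and 8.57% called lower. These were miR-290b-3p, with a log2 fold change of 1.16 (SE 0.31, edgeR adjusted p = 0.0153), and miR-292a-5p, with 0.92 (SE 0.27, edgeR adjusted p = 0.0278). Since both were singled out for this contrast, their p-values are no separate evidence.

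The 5 neighbours were not called. miR-294-3p differed by 0.11 (SE 0.28, edgeR adjusted p = 0.997), miR-292b-3p by 0.14 (SE 0.44) and miR-293-3p by 0.16 (SE 0.85). miR-291b-5p was at 0.91 (SE 0.82, edgeR adjusted p = 0.831), which is the size seen for miR-292a-5p with 3 times its error, and miR-291b-3p at -0.22 (SE 1.00). The error of miR-294-3p was as small as that of the called pair, whereas the errors of miR-293-3p, miR-291b-5p and miR-291b-3p could hide a change of the size of the pair's. That of miR-292b-3p (0.44) was larger than the pair's too, and could hide a change of the size of miR-292a-5p's. The median of the 7 tested entries was 0.16, against 0.17 over all tested entries.

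The calls of the pair depended on single libraries. Without Me-X04+ replicate 1, neither was called: miR-290b-3p was at 0.82 (edgeR adjusted p = 0.0671) and miR-292a-5p at 0.83 (edgeR adjusted p = 0.0787). Leaving out Me-X04+ replicate 3 put miR-292a-5p at 0.67 (edgeR adjusted p = 0.134), and without Me-X04− replicate 1 or replicate 2 it was at 0.79 and 0.86 (edgeR adjusted p = 0.0904 and 0.0781). With read counts in place of UMIs, both were uncalled at 1.20 for miR-290b-3p (edgeR adjusted p = 0.0627) and 0.90 for miR-292a-5p (edgeR adjusted p = 0.0635).

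The fold changes also moved with the scaling. With library size alone, miR-290b-3p was at 2.33 and miR-292a-5p at 2.11, while the median over the table shifted upward by 1.11 and calls in the whole table became 484 higher and 16 lower, against 20 higher and 123 lower with TMM. Under that scaling miR-294-3p was also called (1.21, edgeR adjusted p = 0.0216), close to the median of all entries there, 1.28. It was likewise called with the total UMIs of all RNA classes as library size (0.96, edgeR adjusted p = 0.0349), where the median of all entries was 1.02.

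**Figure D3:**
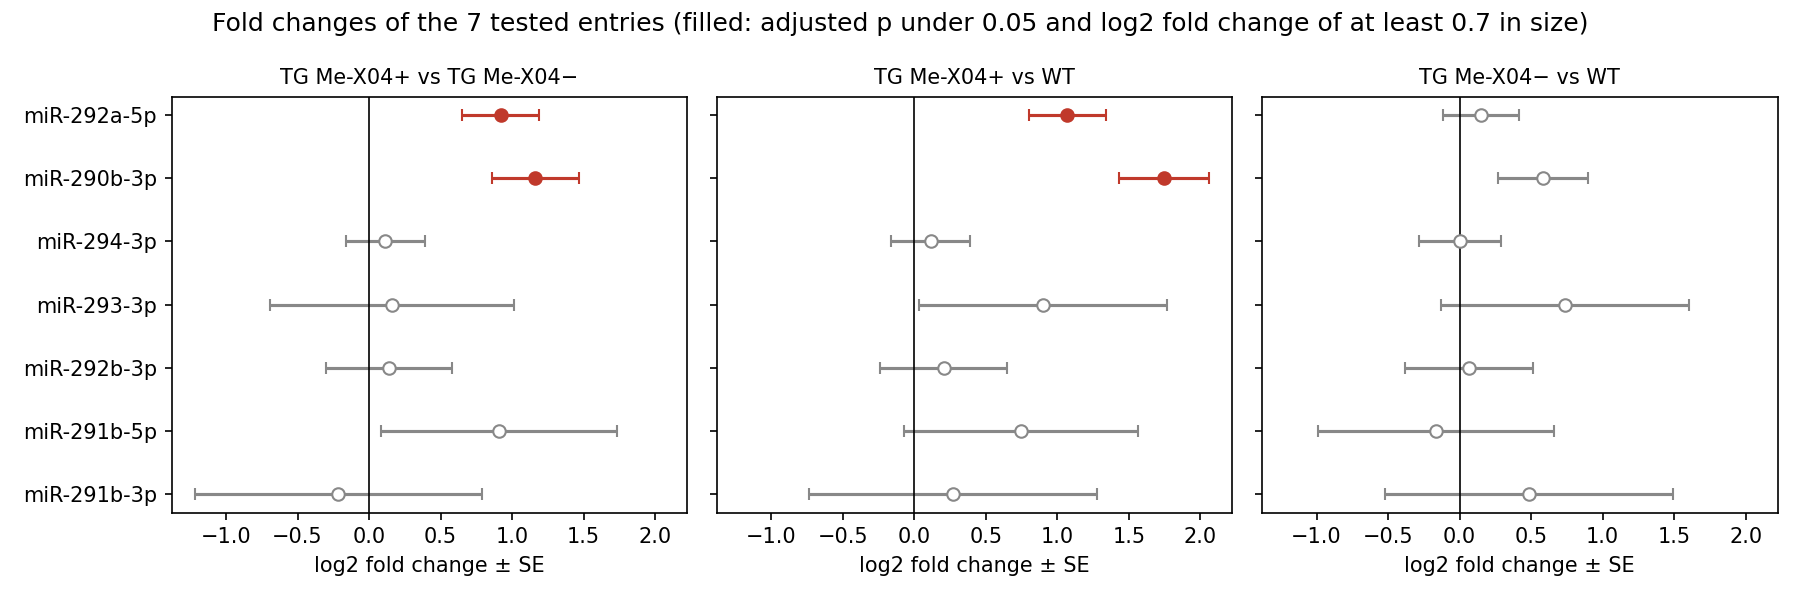
Log2 fold change ± SE of the 7 tested entries in the 3 comparisons (15 libraries, edgeR), with called entries filled in red. miR-290b-3p (1.16 and 1.75) and miR-292a-5p (0.92 and 1.07) are called in both comparisons that hold Me-X04+, and no entry is called in Me-X04− vs WT.

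In Me-X04+ vs WT, which shares the Me-X04+ libraries with the comparison above, 2 of the 7 tested entries were again called higher and none lower, beside 3.69% called higher and 11.7% called lower in the whole table. miR-290b-3p had a log2 fold change of 1.75 (SE 0.31, edgeR adjusted p = 3.8e-04) and miR-292a-5p of 1.07 (SE 0.27, edgeR adjusted p = 0.00709). Both kept their call when any 1 of the 10 Me-X04+ and WT libraries was left out, at 1.40 to 1.90 for miR-290b-3p and 0.83 to 1.20 for miR-292a-5p. The neighbours were at 0.11 for miR-294-3p (SE 0.28), 0.20 for miR-292b-3p (SE 0.44), 0.27 for miR-291b-3p (SE 1.01), 0.75 for miR-291b-5p (SE 0.82) and 0.90 for miR-293-3p (SE 0.87), none called. The median of the 7 was 0.75, against 0.27 over all tested entries. With library size alone 6 of the 7 were called higher, beside 644 of all 1435 tested entries, while the median over the table shifted upward by 1.38.

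In Me-X04− vs WT, the comparison without amyloid-laden cells, no cluster entry was called, beside 0.139% of all tested entries called higher and 0% called lower. None of the 7 reached an unadjusted p under 0.05 with edgeR's test and none was called with DESeq2. miR-290b-3p was at 0.58 (SE 0.31, edgeR adjusted p = 0.998) and miR-292a-5p at 0.15 (SE 0.27). miR-293-3p was at 0.74 and miR-291b-3p at 0.48, both with an SE near the change or above it (0.87 and 1.01), and miR-294-3p was at 0.0013 (SE 0.28). The level of miR-290b-3p ran in the order Me-X04+, Me-X04−, WT, and the step between Me-X04− and WT did not pass the test.

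Reads and UMIs were both deposited, so the amplification behind each count could be compared. miR-290b-3p had 18.5, 12.1, 9.06, 14.2 and 8.61 reads per UMI in Me-X04+ libraries, against 9.38, 8.40, 11.95, 12.5 and 13.7 in Me-X04−. WT libraries held 15.3, 15.6, 12.4, 8.97 and 5.83. The means of Me-X04+, 12.5 ± 4.06, and Me-X04−, 11.2 ± 2.22 (SD, n = 5 each), differed by less than the spread (two-sided exact permutation test, p = 0.532, adjusted p = 0.665 over 5 entries). For miR-292a-5p they were 12.5 ± 3.47 in Me-X04+ and 11.1 ± 1.46 in Me-X04− (exact permutation test, p = 0.444, adjusted p = 0.665). miR-294-3p had the largest difference, 13.6 ± 3.37 in Me-X04+ against 9.90 ± 1.38 in Me-X04− (exact permutation test, p = 0.0714, adjusted p = 0.357, higher in 4 of 5 mice). Neither miR-292b-3p (8.28 in Me-X04+ and 8.79 in Me-X04−) nor miR-291b-3p (10.02 in Me-X04+ and 7.95 in Me-X04−) differed beyond its spread (exact permutation test, adjusted p = 0.857 and 0.665). The smallest p this test allows is 0.00794, and it takes no account of the pairing of libraries by mouse. The whole table had 7.25 to 13.3 reads per UMI in Me-X04+ libraries, 7.36 to 10.7 in Me-X04− and 5.34 to 15.7 in WT. The highest value of miR-290b-3p was in Me-X04+ replicate 1, the library on which its call rested, and that library also had the highest ratio of its group over the whole table, 13.3.

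**Figure D4:**
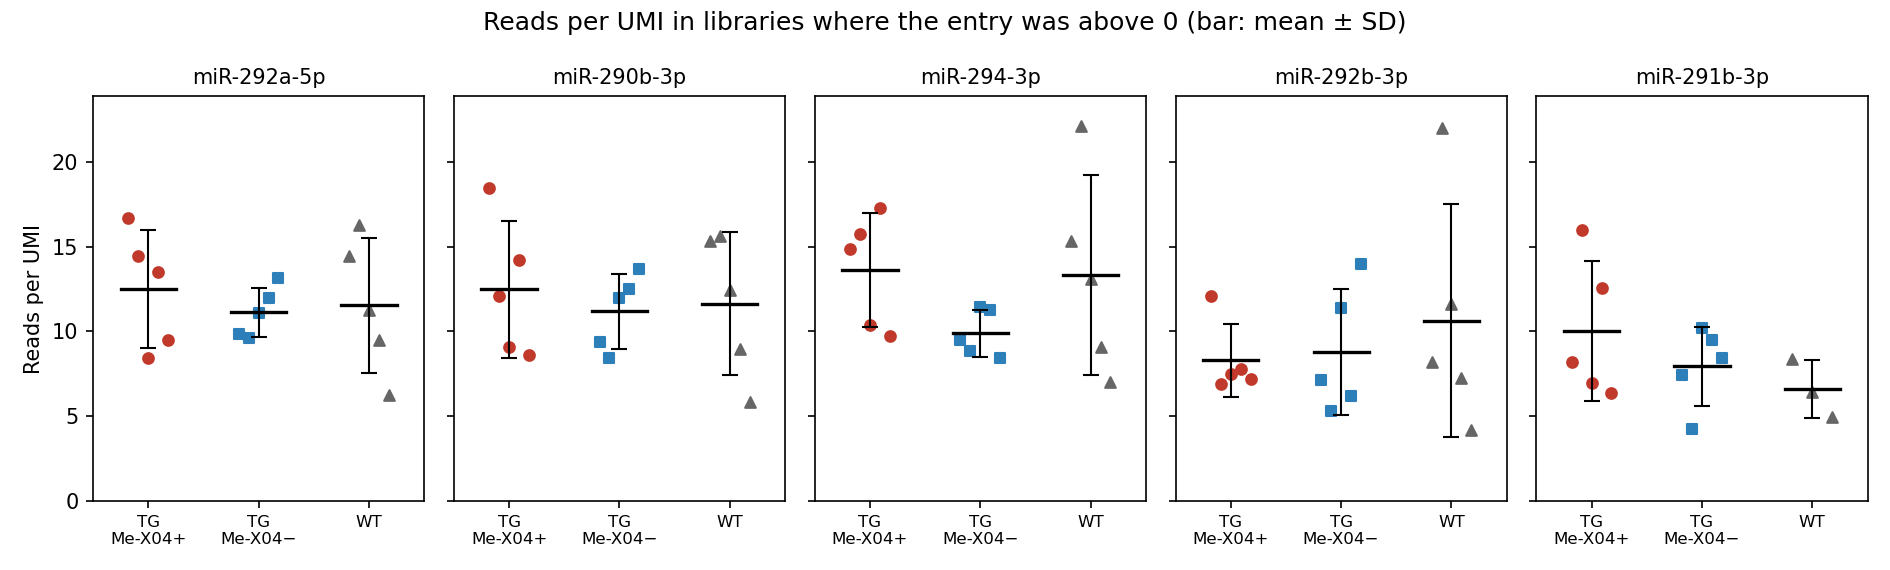
Reads per UMI of the 5 entries above 0 in all 10 TG libraries; points are libraries where the entry was above 0 and bars are mean ± SD. The groups overlap for each entry, with miR-290b-3p at 8.61 to 18.5 in Me-X04+ and 8.40 to 13.7 in Me-X04−.

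The abundant pair, although on opposite strands, tended to be high in the same libraries. Over 15 libraries, which share depth, scaling and the group difference above, the log2 levels of miR-292a-5p and miR-290b-3p had a Pearson r of 0.84 (Spearman rho 0.82), and 0.62 without the 2 libraries farthest from the median of miR-292a-5p. It was 0.95 with library size alone. Within a group it was 0.86 in Me-X04+, 0.22 in Me-X04− and 0.55 in WT, over 5 libraries each, which are too few to rest a relation on. Against miR-290b-3p with TMM scaling, r was -0.09 for miR-294-3p, 0.03 for miR-293-3p, 0.27 for miR-292b-3p, 0.42 for miR-291b-5p and 0.14 for miR-291b-3p. These were, under library size alone, 0.71, 0.36, 0.85, 0.75 and 0.58 in the same order of entries. Against miR-292a-5p they ran from -0.09 for miR-293-3p to 0.62 for miR-291b-5p with TMM scaling, and from 0.36 for miR-293-3p to 0.92 for miR-292b-3p with library size alone. Whether the neighbours varied with the pair therefore depended on the scaling. The pair also moved with the scaling factor. The log2 TMM factor had an r of 0.85 with miR-292a-5p (rho 0.84, and 0.77 without the 2 farthest libraries). With miR-290b-3p it was 0.69 (rho 0.72, and 0.63 without them). Every Me-X04+ factor lay above every other factor, so these r include the difference between groups. Within the 5 Me-X04+ libraries r was 0.65 for miR-292a-5p and 0.19 for miR-290b-3p. The part of the factor in the result was not tested.

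Some entries outside the cluster were more alike to either of the pair than the pair were to each other. Of the 903 tested entries whose log2 CPM averaged 5 or more, the most alike to miR-290b-3p over the 15 libraries were miR-875-5p (r 0.93), miR-7240-5p (0.90), miR-92b-5p (0.89), miR-5098 (0.88) and miR-3085-5p (0.87). For miR-292a-5p they were miR-7051-5p (0.95), miR-875-5p (0.90), miR-8092 (0.89), miR-7240-5p (0.89) and miR-1199-5p (0.89). These are the highest of 903 values, and they include the difference between groups. With read counts, 3 of the 5 stayed for miR-290b-3p and 2 of the 5 for miR-292a-5p. Within the 5 Me-X04− libraries, r with miR-290b-3p ran from -0.13 (miR-92b-5p) to 0.81 (miR-3085-5p). With miR-292a-5p it ran there from -0.18 (miR-7240-5p) to 0.99 (miR-7051-5p). Within the 5 Me-X04+ libraries r was 0.68 to 0.99 with miR-290b-3p and 0.78 to 0.95 with miR-292a-5p. Within the 5 WT libraries it was 0.72 to 0.95 and 0.58 to 0.94. miR-292a-5p came ninth in the order for miR-290b-3p, and miR-290b-3p came fifteenth in that for miR-292a-5p. miR-7051-5p lies on chromosome 7 too, outside the cluster, and miR-875-5p, alike to both, had no sequence in the RefSeq table. The others with a sequence differed from the cluster entry they resembled in level by 12 to 15 edits and shared no run longer than 5 bases with it.

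**Figure D5:**
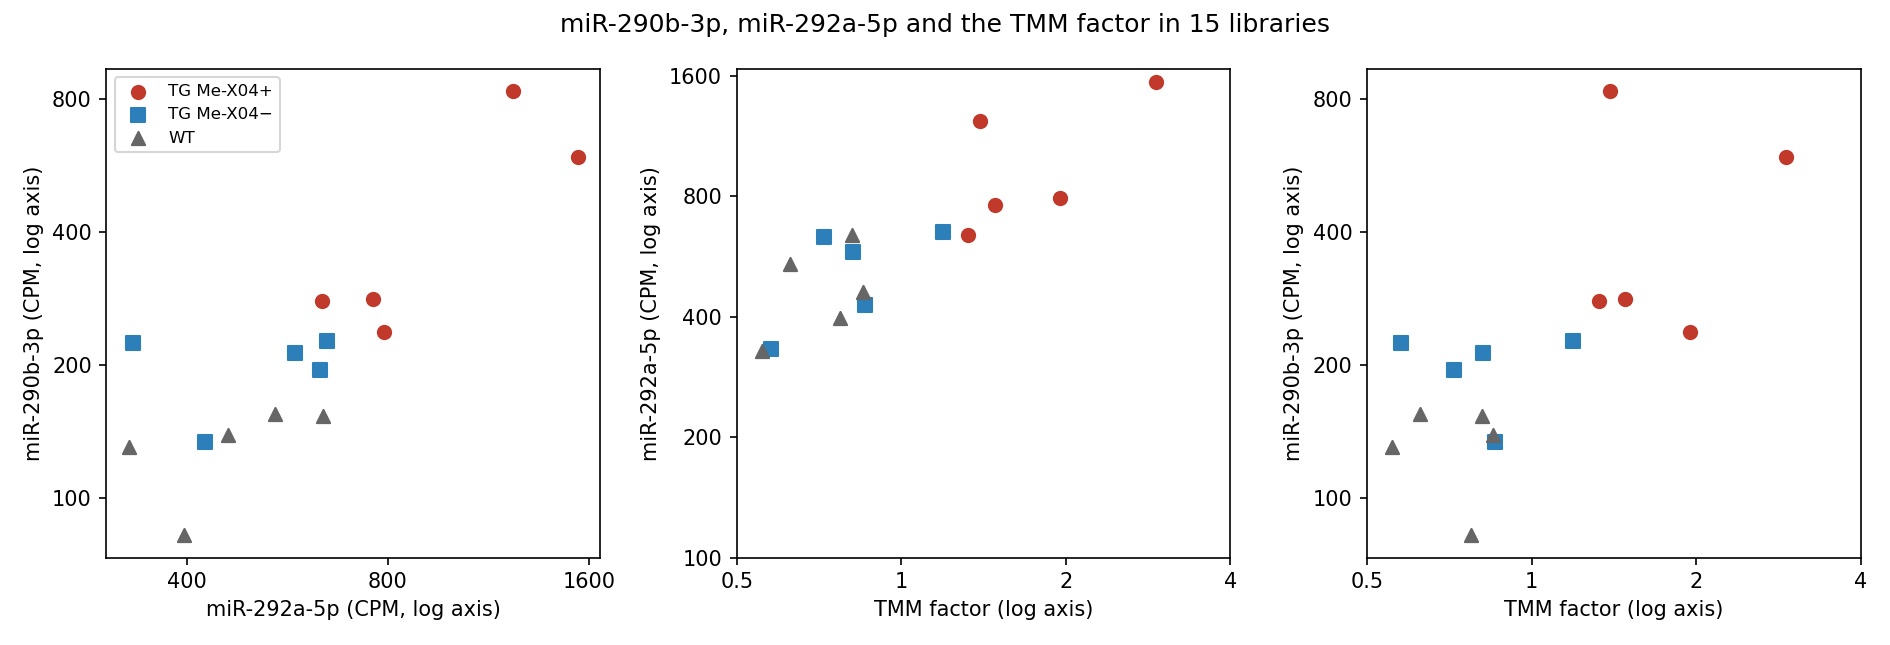
Levels of miR-290b-3p and miR-292a-5p against each other and against the TMM factor in 15 libraries (log axes, colours and shapes mark the groups). Me-X04+ libraries lie at the upper right with factors of 1.33 to 2.92, and the r is 0.84 for the pair, 0.85 for miR-292a-5p with the factor and 0.69 for miR-290b-3p with it.

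The other stem cell cluster, miR-302 and miR-367, and markers of other cells were read beside these results. Of its 10 arms 9 had an entry and 6 were tested, and none was called in any of the 3 comparisons with TMM scaling. With library size alone 3 of the 6 were called higher in Me-X04+ vs Me-X04−, beside 484 of all 1435 tested entries. In Me-X04+ vs WT 3 of the 6 were also called higher under that scaling, beside 644 of 1435. With TMM scaling in Me-X04+ vs Me-X04−, the median of the 6 was 0.58 (0.17 over all entries). There miR-367-5p was at 0.66 (SE 0.29, edgeR adjusted p = 0.202) and miR-302a-5p at 0.51 (SE 0.23, edgeR adjusted p = 0.250). The summed level of these arms was 420 to 540 CPM in Me-X04+, 244 to 349 CPM in Me-X04− and 155.5 to 437 CPM in WT. Its 3p arms, 5 markers taken for pluripotent cells, had 3 members tested and none called with TMM scaling. The 5 summed to 162 to 216 CPM in Me-X04+, 76.6 to 195 CPM in Me-X04− and 42.7 to 186 CPM in WT. With library size alone 1 of the 3 was called higher in Me-X04+ vs Me-X04− and 1 in Me-X04+ vs WT. The same counts held with the all-class total. miR-302c-3p was listed at 0 in all WT libraries and was above 0 in 2 Me-X04+ and 1 Me-X04− libraries, with at most 29 UMIs. Its other arm, miR-302c-5p, was above 0 in 1 WT library alone, with 31 UMIs. The part of these cells in the levels of miR-290b-3p and miR-292a-5p was not tested.

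miRNAs outside both clusters that carry the AAGUGC core include products of the miR-17 to 92 family of clusters, which many dividing cells use. In Me-X04+ vs Me-X04−, 3 of the 4 tested were called lower: miR-17-5p was at -1.41 (SE 0.24, edgeR adjusted p = 5.5e-04), miR-20a-5p at -1.51 and miR-93-5p at -1.56, while miR-106b-5p was at 0.22 (edgeR adjusted p = 0.852). With library size alone none of the 4 was called lower and miR-106b-5p was called higher, beside 16 lower and 484 higher of 1435 tested entries. The same 3 stayed below 0 (lowest -0.43). Of the 5 myeloid markers, miR-155-5p was called higher (1.22) and the other 4 lower, from -1.92 to -1.47 (2 lower with library size alone). Of 4 neuronal markers 1 was higher and 2 were lower, and of 3 oligodendrocyte markers 1 was lower. None of 4 vessel or 3 erythroid markers was called. In this comparison TMM scaling called 1.39% of all tested entries higher and 8.57% lower. With library size alone, of 4 neuronal markers 1 was higher and 1 lower, and of 3 oligodendrocyte markers 1 was higher and none lower. In Me-X04+ vs WT, 1 of 5 myeloid markers was higher and 4 were lower, 2 of 4 neuronal and 1 of 3 oligodendrocyte markers were lower, none of 3 erythroid markers was called, and of 4 vessel markers miR-126a-3p was lower (-1.55) and miR-145a-5p, above 0 in 4 Me-X04+ libraries (at most 20 UMIs) and listed at 0 in all 5 WT libraries, was higher. In that comparison TMM scaling called 3.69% of all tested entries higher and 11.7% lower. Under library size alone 2 of the 3 erythroid markers were called higher, beside 644 of all 1435 tested entries higher and 28 lower. Under that scaling 1 of 3 oligodendrocyte markers was higher and none lower, and of 4 neuronal markers 1 was higher and 1 lower. Of 5 myeloid markers 1 was higher and 1 lower, and of 4 vessel markers 1 was higher and none lower. Summed neuronal markers were at 624 to 1014 CPM in Me-X04+, 1354 to 2853 CPM in Me-X04− and 1609 to 3819 CPM in WT, and oligodendrocyte markers at 224 to 318 CPM in Me-X04+, 237 to 510 CPM in Me-X04− and 363 to 522 CPM in WT. Vessel markers summed to 62.0 to 159 CPM in Me-X04+, 91.5 to 213 CPM in Me-X04− and 99.2 to 385 CPM in WT, and erythroid markers to 84.0 to 189 CPM in Me-X04+, 133.5 to 203 CPM in Me-X04− and 116 to 159 CPM in WT. With TMM scaling none of these sums was higher in Me-X04+ than in both other groups without overlap, and the part of other cells in the level of the cluster was not tested.

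The entries that did not pass the filter were mostly listed at 0. In the fit without it, the lowest edgeR adjusted p among them was 0.169, for miR-290b-5p in Me-X04+ vs WT, an entry at 0 in all WT libraries. miR-295-3p, another AAGUGC member, was above 0 in 3 Me-X04+ libraries (12 to 32 UMIs), in all 5 Me-X04− libraries (10 to 12 UMIs) and in 2 WT libraries (13 and 23 UMIs). miR-293-5p, which has the seed of miR-292a-5p, was above 0 in 3 Me-X04+, 2 Me-X04− and 2 WT libraries, with at most 23 UMIs. miR-290b-5p, the other arm of the miR-290b hairpin, was above 0 in 2 Me-X04+ and 3 Me-X04− libraries and in none of WT, with at most 22 UMIs. In Me-X04+ replicate 1, where miR-290b-3p had 278 UMIs, its other arm miR-290b-5p and its antisense partner miR-290a-5p were both listed at 0. In that library 42.4% of all entries of the table were listed at 0.

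The 8 entries below the tenth held 10 to 77 UMIs in all. miR-290a-5p was above 0 in 2 Me-X04+, 2 Me-X04− and 1 WT library, and miR-292a-3p, the other arm of the miR-292 hairpin, in 3 Me-X04+ libraries and 1 of either other group. miR-292b-5p and miR-295-5p were above 0 in 1 library each, WT replicate 5, the deepest of all. Differences between groups in these entries were not detectable at this depth.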

How the data were processed

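Small RNA libraries with UMIs were made from sorted microglia, 1 library of each TG group per TG mouse and 1 per WT mouse, 5 per group. The authors sorted reads into miRNA, piRNA, tRNA and other classes, and the deposited tables give counts of reads and of UMIs for each entry, not normalized. edgeR 3.24.3 and the build GRCm38 are named in the submitters' processing notes. Groups and ages are those of the labels, from which the methods of the study differ. Within groups, the 30 pairs of libraries differed beyond counting noise (chi-square over its degrees of freedom, 5.42 to 23.1), and all were kept as separate samples.

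The whole miRNA and piRNA table of UMI counts was fitted with edgeR 4.0.16 (R 4.3.3): filterByExpr, TMM, all 15 libraries with group as the only term, then the quasi-likelihood test, adjusted by Benjamini-Hochberg over 1435 entries. A call needed adjusted p below 0.05 and a log2 fold change of 0.7 or more in size. SEs were back-calculated from the test statistic. For reads per UMI, exact permutation tests (two-sided, 252 arrangements, scipy 1.17.1) were used, with Me-X04+ and Me-X04− libraries taken as independent. Sequences came from RefSeq and annotation from GENCODE vM21, both on GRCm38. The fit was tested on simulated counts.

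The members, lists and tests were chosen with earlier results of these data known. Named entries are the cluster members, the fixed lists and, for miR-290b-3p and miR-292a-5p, the 5 entries most alike in level. Alternatives were other scalings, DESeq2 1.42.0, other filters, read counts, miRNA entries alone, 2 groups alone, zeros set to 9, the replicate block, no minimum fold change, and leaving out each library. Me-X04+ and Me-X04− libraries with a shared number came from 1 mouse by the labels and so are paired. Residuals of such pairs correlated from -0.17 to 0.25 (5 pairs), and of other pairs from -0.26 to 0.27 (20 pairs). The total of all classes was summed from the UMI columns, since the summary holds reads only.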

Additional observations from a re-analysis of the deposited data

Results flagged for a closer look

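In WT, miR-291b-5p was listed at 0 in replicate 2 while the nearest of the other 4 libraries held 26.9 CPM, a gap of 0.731 of the group's range, above the critical value of 0.71. Chance flags about 1 in 20 groups, and 21 groups of 5 libraries were examined for the 7 tested entries, with this 1 flag. A value of 0 may stand for 0 to 9 UMIs in this library of 424536 UMIs.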

How the results depend on the processing

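In Me-X04+ vs Me-X04−, 2 cluster entries were called in the reported fit, 3 with library size alone and with the all-class total (miR-294-3p added), 0 with read counts, 1 with the 2 groups alone (miR-292a-5p was not called, at 0.90, adjusted p = 0.0510), and 0 to 2 when each library of its groups was left out. The counts in Me-X04+ vs WT were 2 in the reported fit, 6 with library size alone, 4 with the all-class total, and 2 without each library; in Me-X04− vs WT they stayed at 0 in all 22 alternatives. With the replicate block, which for Me-X04+ vs Me-X04− is the mouse (paired libraries), miR-290b-3p was at 1.01 (adjusted p = 0.0124) and miR-292a-5p at 0.88 (adjusted p = 0.0300), and the block changed no call of a cluster entry. miR-290b-3p was called in 20 of 22 alternatives in this comparison and miR-292a-5p in 16 of 22; both were called in all 22 in Me-X04+ vs WT. The signs of uncalled neighbours turned under some settings. In Me-X04+ vs Me-X04−, miR-293-3p was at -0.12 with the replicate block, miR-292b-3p at -0.075 with read counts, and miR-291b-3p at 0.84 with library size and 0.60 with the all-class total; without each library miR-294-3p was at -0.034 to 0.26 and miR-293-3p at -0.071 to 0.47. In Me-X04+ vs WT, miR-292b-3p was at -0.13 with read counts and miR-291b-3p at -0.30 with zeros set to 9, and at -0.053 to 0.65 without each library. In Me-X04− vs WT, miR-294-3p was at -0.0024 with no filter, -0.27 with read counts, -0.013 with miRNA entries alone, -0.0094 with zeros set to 9, -0.032 with the replicate block and -0.15 to 0.15 without each library. There miR-292b-3p was at -0.055 with read counts and -0.12 to 0.19 without each library, miR-291b-5p at 0.088 with library size, 0.17 with the all-class total and -0.71 to 0.14 without each library, and miR-291b-3p at -0.030 with zeros set to 9. The cause of these changes was not tested. Calls over the whole table were 20 higher and 123 lower in Me-X04+ vs Me-X04− (500 in all with library size, 426 with the all-class total), 221 in Me-X04+ vs WT (672 and 660), and 2 in Me-X04− vs WT (0 to 7 over the alternatives). With the all-class total the calls split as 398 higher and 28 lower in Me-X04+ vs Me-X04−, and 616 higher and 44 lower in Me-X04+ vs WT, where library size gave 644 and 28 and TMM 53 and 168. The all-class total moved the median of all entries up by 0.85 and 1.17 in these comparisons. Entries near 10 UMIs, which includes all neighbours but miR-294-3p, were limited by depth and by values under 10 listed as 0. The correlation of miR-290b-3p and miR-292a-5p was 0.84 in the reported scaling and 0.22 to 0.95 over 5 alternatives.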
